A study of Mus musculus with 2 samples.

Results

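The 9 genes described here encode the RNA 7SK and the proteins it works with in the switch that holds or frees the elongation factor P-TEFb. They were chosen by name from the gene tables of 2 libraries of mouse hematopoietic stem cells (HSC), with the high level of the 7SK gene Rn7sk in these libraries already known. All 9 were found among 43346 features with an Ensembl gene identifier: 1 RNA gene, Rn7sk, and 8 of the 21474 protein-coding genes, Hexim1, Larp7, Mepce, Cdk9, Ccnt1, Ccnt2, Aff1 and Aff4. Their levels are therefore given as descriptions. Both libraries belong to 1 group: male C57BL/6J mice, aged 5 to 6 weeks, with no treatment or altered allele named and 100 ng of RNA from each of 2 biosamples, depleted of ribosomal RNA before total RNA was sequenced. Both biosamples carry the same donor entry in the labels. The labels and files do not say whether they came from separate animals or by which gate the HSC were sorted, so the spread between the libraries may be technical.

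P-TEFb is a kinase made of Cdk9 and cyclin T1 or T2. It phosphorylates RNA polymerase II and the factors that hold it paused near the start of genes, and so lets it elongate. 7SK is a short RNA made by RNA polymerase III. Together with a HEXIM protein it binds P-TEFb and keeps the kinase inactive, while Mepce caps the RNA and Larp7 binds its end, and both protect it from decay. When P-TEFb is released it can join the super elongation complex, which is assembled on a scaffold of the AFF family. HEXIM1 is named for its induction by hexamethylene bisacetamide, an agent that drives leukemia cells to differentiate, and AFF1 and AFF4 are fusion partners of MLL (Kmt2a) in leukemia.

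Rn7sk is a gene of 331 nucleotides without introns, at chromosome 9, 78175303 to 78175633, on the minus strand of GRCm38. Its first 100 bases, from the GENCODE M21 transcript, are shown because HEXIM proteins bind at the GATC repeats of the 5′ stem of 7SK, and its last 60 because Larp7 binds the run of U at the 3′ end. Capitals mark GATC in the first and the closing run of 3 T in the second, in DNA letters.

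Rn7sk bases 1 to 100: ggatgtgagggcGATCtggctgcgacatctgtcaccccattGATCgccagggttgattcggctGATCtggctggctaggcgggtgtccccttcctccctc

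Rn7sk bases 272 to 331: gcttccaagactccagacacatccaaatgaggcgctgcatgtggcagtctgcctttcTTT

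GATC, which reads the same on both strands, was found 3 times in Rn7sk, at positions 13, 42 and 64 from the 5′ end. Of the 4689 annotated transcripts of 300 to 360 nucleotides, 66.4% held GATC at least once and 9.15% held it 3 times or more. A match is a description of the letters and not of binding.

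The libraries held 27901074 estimated counts in replicate 1 and 48490188 in replicate 2. The labels give different size ranges for the 2 libraries, 172 to 1452 and 232 to 1000, without a unit. Of 10 genes listed as HSC markers, 9 were at 1 TPM or more in both libraries. The summed levels of the 10 were 355.68 and 388.18 TPM. TPM, transcripts scaled to a fixed total in each library, is a level per unit of effective length, which is the length over which a fragment of the library can start. The marker below that level was Slamf1, at 0.42 and 0.43 TPM. Cd34, at 145 and 166 TPM, and Flt3, at 57.9 and 53.2 TPM, were the highest of that list, which does not separate stem cells from progenitors. What part of these levels came from stem cells and what part from progenitors was not tested. Neutrophil markers were detected for 6 of 6 genes, with sums of 2989 and 1102 TPM. Monocyte markers were detected for 3 of 4, with sums of 363.98 and 168.0 TPM. Erythroid markers were detected for 3 of 6, with sums of 17.2 and 85.6 TPM, and megakaryocyte markers for 3 of 4, with sums of 13.7 and 17.4 TPM. No B cell marker of 4 was detected, and Pax5 had no count. Of 4 T cell markers only Lck was detected, and Trac had no count. The part of other cells in the levels of the 9 genes was not tested, and in bulk RNA fewer cells of a type and less RNA per cell cannot be told apart.

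Rn7sk had the highest level of all genes in both libraries, whether ranked by TPM, by counts or by counts over full length. Its level was 140744 TPM in replicate 1 and 148868 TPM in replicate 2, a mean of 144806 ± 5745 TPM (SD, n = 2). The 2 libraries lay close to each other on this scale, and 7SK took 14.5% ± 0.574 of all TPM (SD, n = 2). The next gene by TPM was the small nuclear RNA gene Gm22513 in replicate 1, at 60058 TPM, and the small nucleolar RNA gene Gm22422 in replicate 2, at 76345 TPM. Rn7sk was 2.34-fold and 1.95-fold above them. By counts the next was Rn7s2, a 7SL RNA gene, in replicate 1 and the mitochondrial gene mt-Co1 in replicate 2.

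As raw counts the share of Rn7sk was smaller, since the RNA is short. It held 1730714 counts in replicate 1, or 6.20% of the library (Wilson 95% interval 6.19% to 6.21%). In replicate 2 it held 1945040 counts, or 4.01% (4.006% to 4.017%). These intervals cover counting error only. Set against the counts of protein-coding genes, there were 76.1 Rn7sk counts per 1000 in replicate 1 and 46.3 in replicate 2. The library with the higher TPM was thus the one with the lower share of counts. The effective length of Rn7sk was 142 nucleotides in replicate 1 and 101 in replicate 2, which is 43.0% and 30.4% of its full length. Dividing counts by the full length for every gene gave Rn7sk 19.9% in replicate 1 and 16.6% in replicate 2. With TPM centred on the median of protein-coding genes, the log2 change of Rn7sk from replicate 1 to replicate 2 was -0.22, against 0.08 in TPM as deposited. Which replicate was higher in 7SK therefore depended both on how length was treated and on the scaling. The part of the library size range in this was not tested.

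**Figure D1:**
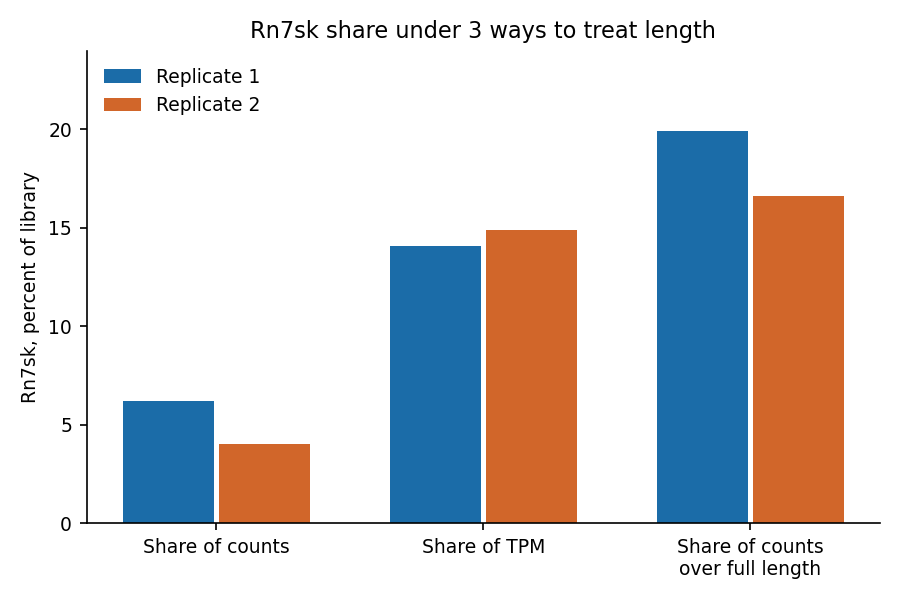
Share of Rn7sk in each library in percent of TPM, of counts, and of counts divided by full length, with 1 bar per replicate. Replicate 2 is above replicate 1 by TPM (14.9% against 14.1%) and below it by counts (4.01% against 6.20%) and by counts over full length (16.6% against 19.9%).

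The deposited intervals, which the authors placed around a posterior mean, ran from 137936 to 138513 TPM in replicate 1 and from 147165 to 147856 TPM in replicate 2. The TPM of Rn7sk lies above its own interval in both libraries. These intervals cover the assignment and counting of fragments and say nothing of the spread between samples.

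The mouse genome holds many partial copies of 7SK, which could share reads with it. A search for sequences at least 70% identical over at least 60% of Rn7sk found 100 genes, of which 99 were in the tables and 85 had no count in either library. Of the 99, 98 were annotated as miscellaneous RNA and 1 was the coding gene Alkbh6, with 435 and 616 counts. The copy Gm24757, which had no count, lies within Alkbh6 and aligned with the same identity. Whether counts of Alkbh6 came from that stretch was not tested. The 98 RNA copies covered a median of 71.3% of Rn7sk, and only 2 covered 95% or more. All 99 together held 1078 counts in replicate 1 and 1019 in replicate 2, which is 0.0623% and 0.0524% of the counts of Rn7sk plus copies. The 98 RNA copies without Alkbh6 held 643 and 403 counts, or 0.0372% and 0.0207% of Rn7sk plus these copies. Nearly all counts of Rn7sk and these copies were thus assigned to the 1 gene Rn7sk in both libraries. Some alignment to Rn7sk was found for 237 genes, and those outside the limits of the search were not summed.

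The 4 RNA copies with the most counts are shown over the same window as the 5′ part of Rn7sk, with bases that differ from Rn7sk in capitals. Gm24146 (chromosome 5, 139844930 to 139845250, plus strand) differed at 2 bases. Gm26315 (chromosome 2, 7076094 to 7076414, minus strand), aligned from base 5, differed at 0. Gm24447 (chromosome 15, 93234363 to 93234700, plus strand) also differed at 0. Gm22058 (chromosome 12, 69930904 to 69931213, plus strand) differed at 4. All 4 kept the 3 GATC.

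Gm24146: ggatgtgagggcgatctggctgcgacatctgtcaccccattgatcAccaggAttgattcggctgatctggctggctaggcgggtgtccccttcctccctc

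Gm26315: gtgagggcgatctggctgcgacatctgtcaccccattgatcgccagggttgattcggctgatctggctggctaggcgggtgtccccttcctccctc

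Gm24447: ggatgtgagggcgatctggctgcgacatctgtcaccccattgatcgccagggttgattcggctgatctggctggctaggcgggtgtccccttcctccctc

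Gm22058: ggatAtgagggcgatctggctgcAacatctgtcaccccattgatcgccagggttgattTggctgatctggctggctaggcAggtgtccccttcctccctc

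Gm24146 held 259 and 217 counts in replicates 1 and 2. Gm26315 held 223 and 61.2 counts with a posterior SD of 15.9 and 6.22. Gm24447, identical to Rn7sk over the 241 bases that align, held 32.2 and 45.1 counts with a posterior SD of 6.12 and 5.21. Its counts cannot be told apart from reads of Rn7sk over those bases. Gm22058 held 39.9 and 19.1 counts.

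The 8 protein-coding genes were far below the RNA and above most other coding genes. Together they came to 88.1 TPM in replicate 1 and 135 TPM in replicate 2, so that Rn7sk stood 1597-fold and 1104-fold above their sum. Their median was 9.88 TPM and 13.5 TPM, against 0.51 and 0.53 TPM over all protein-coding genes. Over the protein-coding genes at 1 TPM or more in the library, the median was 5.615 and 6.68 TPM. Mepce was below that median in both libraries, Hexim1 in replicate 1 and Aff1 in replicate 2. All 8 reached 1 TPM in both libraries, as did 44.0% of all protein-coding genes. Each rested on at least 793 counts in replicate 1 and 1341 in replicate 2.

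**Figure D2:**
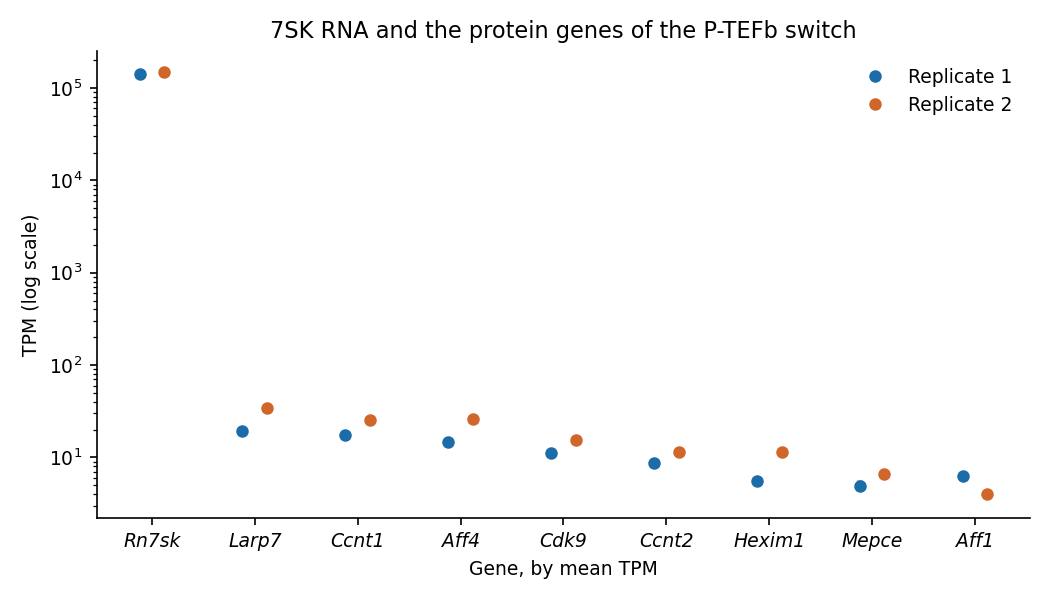
Level of each of the 9 genes in TPM on a log axis, with 1 point per replicate and a line for the deposited interval, which the points cover. Rn7sk lies at 140744 and 148868 TPM and the 8 protein-coding genes between 4.00 TPM (Aff1, replicate 2) and 34.7 TPM (Larp7, replicate 2).

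Among Hexim1, Larp7 and Mepce, the chosen genes whose proteins bind 7SK, Larp7 had the highest mean TPM and Mepce the lowest. Larp7, the La-related protein that stays on the 3′ end of 7SK (chromosome 3, 127536714 to 127553349, minus strand), was at 19.4 TPM in replicate 1 and 34.7 TPM in replicate 2, a mean of 27.1 ± 10.8 TPM (SD, n = 2). Mepce, the methylphosphate capping enzyme (chromosome 5, 137781906 to 137787655, minus strand), was at 4.93 and 6.54 TPM, a mean of 5.74 ± 1.14 TPM (SD, n = 2). Larp7 was higher than Mepce by 2.17 ± 0.31 on the log2 scale (SD, n = 2), with intervals that did not overlap in either library. Over transcripts of 1000 nucleotides or more the difference was 3.04.

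Hexim1, the inhibitor that 7SK loads onto P-TEFb, is a gene with a single annotated transcript (chromosome 11, 103116231 to 103119725, plus strand). Its level was 5.52 TPM in replicate 1 and 11.45 TPM in replicate 2, a mean of 8.485 ± 4.19 TPM (SD, n = 2). In TPM as deposited this was the widest ratio between the replicates among the 8 coding genes, while after centring on protein-coding genes that of Aff1 was wider. Hexim1 was below Larp7 in both libraries, by 1.80 and 1.59 on the log2 scale. Against Mepce the order did not hold: the log2 ratio of Mepce to Hexim1 was -0.16 and -0.80, and the intervals overlapped in replicate 1. Its paralog Hexim2, which can take its place in the complex, had 18 and 62 counts, or 0.18 and 0.49 TPM. Hexim1 was higher than Hexim2 by 4.31 ± 0.03 on the log2 (TPM + 0.1) scale (SD, n = 2). Rn7sk stood 25497-fold above Hexim1 in replicate 1 and 13002-fold above it in replicate 2, in TPM. The distance was smaller on CPM, with Rn7sk at 62030 and 40112 and Hexim1 at 56.4 and 99.6.

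The kinase and its cyclins were ordered alike in both libraries, with Ccnt1 first, Cdk9 next and Ccnt2 last. Cdk9 (chromosome 2, 32705784 to 32713076, minus strand) was at 11.1 TPM in replicate 1 and 15.3 TPM in replicate 2, a mean of 13.2 ± 2.98 TPM (SD, n = 2). Ccnt1, which encodes cyclin T1 (chromosome 15, 98538689 to 98570923, minus strand), was at 17.6 and 25.4 TPM, a mean of 21.5 ± 5.49 TPM (SD, n = 2). Ccnt2, which encodes cyclin T2 (chromosome 1, 127774164 to 127808061, plus strand), was at 8.62 and 11.6 TPM, a mean of 10.1 ± 2.09 TPM (SD, n = 2).

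Ccnt1 held 67.1% and 68.7% of the TPM of the 2 cyclins. The log2 ratio of Ccnt1 to Ccnt2 was 1.07 ± 0.07, that of Cdk9 to Ccnt1 was -0.69 ± 0.05 and that of Cdk9 to Ccnt2 was 0.38 ± 0.03 (SD, n = 2 each). None of the 3 pairs had overlapping intervals in either library. On CPM the order of Cdk9 and Ccnt2 turned, with a log2 ratio of -1.30. Over protein-coding transcripts alone, Cdk9 and Ccnt1 came close, with a log2 ratio of -0.063, while that of Cdk9 to Ccnt2 was 1.06. Over transcripts of 1000 nucleotides or more, the ratio of Cdk9 to Ccnt2 was 0.028, so the place of Cdk9 between the cyclins depended on which transcripts were summed. Exons of Ccnt1 overlap the antisense gene 9330020H09Rik, which had 347 and 1242 counts. The labels and files do not say whether the counting used strand. The posterior SD of the Ccnt1 count was 0 in both libraries, so the counting split no reads between the 2 genes. Whether each read went to the right gene was not tested.

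The inhibitor was below the kinase in both libraries, with a log2 ratio of Hexim1 to Cdk9 of -0.999 in replicate 1 and -0.42 in replicate 2. On CPM, where Hexim1 gains from its longer transcript, this ratio was 0.56. Over protein-coding transcripts in TPM it was -0.25. In TPM Cdk9 was close to Cdk12, a kinase that acts on RNA polymerase II later in elongation, at 11.1 and 15.0 TPM. Their log2 ratio was 0.02 ± 0.02 (SD, n = 2) in TPM, and the intervals overlapped, while on CPM the ratio was -1.68. Cdk13, the relative of Cdk12, was at 7.47 and 10.1 TPM. It was below Cdk9 by a log2 ratio of 0.59 ± 0.02 (SD, n = 2) in TPM, while the ratio of Cdk9 to Cdk13 on CPM was -1.75.

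The 2 scaffolds of the super elongation complex differed in level, and in gene-level TPM the replicates differed in opposite directions for them. Aff4 (chromosome 11, 53350833 to 53421830, plus strand) was at 14.6 TPM in replicate 1 and 25.85 TPM in replicate 2, a mean of 20.2 ± 7.97 TPM (SD, n = 2). Aff1 (chromosome 5, 103692374 to 103855322, plus strand) was at 6.30 and 4.00 TPM, a mean of 5.15 ± 1.63 TPM (SD, n = 2). Aff1 was below Aff4 in both libraries, with log2 ratios of -1.20 and -2.66. Aff1 was the only one of the 9 genes with a lower TPM in replicate 2. Over protein-coding transcripts alone it was higher in replicate 2, at 3.17 and 3.90 TPM, as was Aff4, at 9.67 and 13.67 TPM. Over transcripts of 1000 nucleotides or more Aff1 was lower in replicate 2, at 4.94 and 4.01 TPM. Aff4 was above Cdk9 by 0.57 ± 0.26 on the log2 scale (SD, n = 2). With TPM summed only over transcripts of 1000 nucleotides or more, that ratio was -0.12.

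By mean TPM the order was Larp7, Ccnt1, Aff4, Cdk9, Ccnt2, Hexim1, Mepce and Aff1. Only 2 of the 7 steps between neighbours held in both libraries without overlapping intervals, Aff4 above Cdk9 and Cdk9 above Ccnt2. Of all 28 pairs of the 8 genes, 22 held. The 6 that did not were Larp7 with Ccnt1, Ccnt1 with Aff4, Hexim1 with Ccnt2, with Mepce and with Aff1, and Mepce with Aff1. Neither of the 2 steps held over transcripts of 1000 nucleotides or more, where the log2 ratio of Aff4 to Cdk9 was -0.12 and that of Cdk9 to Ccnt2 was 0.028, so the place of Cdk9 was not resolved.

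For 5 of the 8 genes part of the gene-level TPM came from transcripts not annotated as coding, and for some from short transcripts with few counts. Hexim1 and Larp7 have 1 annotated transcript each, so all of their TPM was protein-coding, and Mepce had 100% in protein-coding transcripts too. For Cdk9 the protein-coding share was 76.3% in replicate 1 and 69.4% in replicate 2. It was 42.5% and 52.0% for Ccnt1, and 44.0% and 46.2% for Ccnt2. For Aff4 it was 66.4% and 52.9%, and for Aff1 50.3% and 97.3%, the widest gap between the libraries in TPM. As shares of counts, which weigh long transcripts more, protein-coding transcripts held 77.4% and 83.1% for Ccnt1 and 95.8% and 91.1% for Aff4. By counts Ccnt2 was at 54.4% and 45.8%, so its non-coding transcripts held about as many counts as its coding ones. By counts the share was 89.0% and 99.5% for Aff1, and the gap was wider for Cdk9, at 80.9% and 66.2%. The median over expressed protein-coding genes was 98.2% in replicate 1 and 100% in replicate 2, and over the 4306 of them with an annotated retained-intron transcript it was 78.5% and 82.1%.

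**Figure D3:**
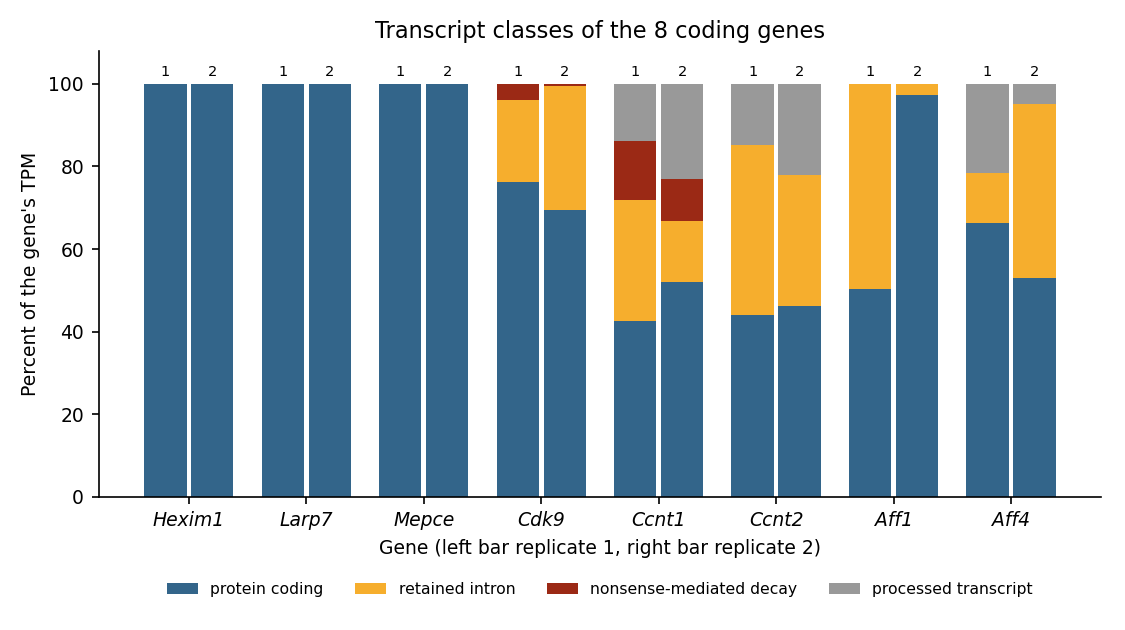
Share of each coding gene's TPM by transcript class in percent, with 1 bar per replicate. Hexim1, Larp7 and Mepce are protein-coding throughout, and retained-intron transcripts of Aff1 take 49.7% in replicate 1 and 2.74% in replicate 2.

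Retained-intron transcripts, which keep an intron and are not annotated as coding, held 41.2% and 31.8% of the TPM of Ccnt2 in replicates 1 and 2. They held 29.4% and 14.9% for Ccnt1, and 19.7% and 30.1% for Cdk9. For Aff4 they held 12.1% and 42.1%. The libraries were made from total RNA, and whether reads of such transcripts came from RNA not yet spliced was not tested. The transcripts of Aff1 that account for its difference were Aff1-203, at 28.1% and 2.69%, and Aff1-204, at 21.6% and 0%. These had 217 and 58.3 counts in replicate 1 of the 2498 of the gene. The coding transcripts Aff1-202, at 34.8% and 47.0%, and Aff1-201, at 15.5% and 32.9%, held most of the rest, and Aff1-205 was at 0% and 17.4%. The order of Aff1-202 and Aff1-201 was not resolved, since their intervals overlapped in both libraries. In replicate 1 these ran from 0.80 to 2.33 TPM and from 0.78 to 2.31 TPM.

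Transcripts under 1000 nucleotides weighed most in Aff4 and Mepce. In Aff4 they held 42.5% and 59.9% of the TPM but 2.56% and 6.28% of the counts. The full-length Aff4-201, of 10099 nucleotides, was at 7.89 and 9.33 TPM, closer between the replicates than the gene as a whole. The other Aff4 transcripts that reached 10% were Aff4-202, Aff4-203, Aff4-207 and Aff4-208, the last at 2.14% and 25.1%. In Mepce the transcript Mepce-202, of 524 nucleotides, held 41.2% and 50.1% of the TPM from 58.3 and 119.5 counts. Mepce-201, of 3128 nucleotides, held the remaining 58.8% and 49.9%. Over transcripts of 1000 nucleotides or more, the means were 9.37 TPM for Aff4, 3.08 TPM for Mepce, 17.1 TPM for Ccnt1, 10.2 TPM for Cdk9 and 4.48 TPM for Aff1.

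The leading transcript was not the same in both libraries for some of these genes. Cdk9-202 held 48.1% in replicate 1 and 17.2% in replicate 2, and Cdk9-201 held 28.2% and 44.1%. Both are annotated as coding. Ccnt2-201 was at 22.9% and 0%, while Ccnt2-202 was at 21.1% and 46.2%. Ccnt1-208, of 7397 nucleotides, led in both libraries, at 38.7% and 31.7%. Ccnt1-201, the shorter coding transcript, had 115 and 1289 counts and reached 20.3% in replicate 2. The smaller transcripts Cdk9-204 and Cdk9-206 reached 10% in replicate 2, as did Ccnt2-205. Ccnt1-202, Ccnt1-203 and Ccnt1-206 reached 10% in both libraries, as did Ccnt2-204 and Ccnt2-207, and Ccnt2-206 in replicate 1. How reads are split among overlapping transcripts is an estimate, so these percents are less certain than the gene totals.

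Between the replicates, Hexim1 alone of the 9 genes was over 2-fold apart with intervals that did not overlap. It was 2.07-fold higher in replicate 2. The same held for 12.4% of 11018 genes with a mean of 1 TPM or more, and for 7.9% in the direction of replicate 2, so that 1 of 9 is near the background. With all values centred on the median of protein-coding genes, which lay 0.30 higher in replicate 2 on the log2 scale, 10.9% of genes and none of the 9 were apart. On CPM, TMM and median-of-ratios scales none of the 9 was apart either. The intervals of all 9 were separate between the libraries, but they do not cover the spread between samples. Over these libraries the summed neutrophil markers went from 2989 to 1102 TPM and the erythroid ones from 17.2 to 85.6 TPM, and their part in the differences was not tested. No test was made, because flipping signs over 2 libraries of 1 group cannot give an exact permutation p under 0.5.

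The size of the change from replicate 1 to replicate 2 in log2 TPM was 1.05 for Hexim1, 0.84 for Larp7 and 0.83 for Aff4. It was 0.53 for Ccnt1, 0.46 for Cdk9, 0.43 for Ccnt2 and 0.41 for Mepce, against a median shift of 0.30 over 9900 coding genes. It was 0.08 for Rn7sk and -0.66 for Aff1. On CPM the values were 0.82 for Hexim1 and 0.58 for Larp7, but 0.10 for Aff4, -0.27 for Aff1 and -0.04 for Mepce. Rn7sk was at -0.63 on that scale. Among the coding genes Hexim1 and Larp7 had the largest differences in TPM and on CPM, and those of Aff4 and Aff1 were smaller on CPM. After centring, Aff1 had the largest at -0.95, followed by Hexim1 at 0.75 and Larp7 at 0.54.

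**Figure D4:**
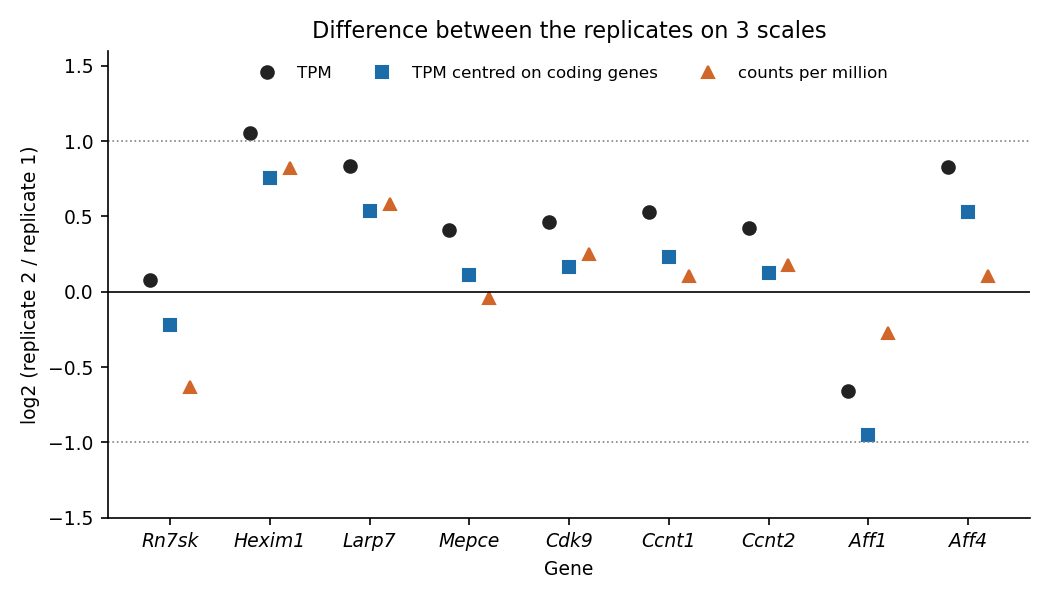
Log2 change from replicate 1 to replicate 2 of each of the 9 genes on the TPM, centred TPM and CPM scales, with 1 point per scale and dotted lines at 2-fold. Rn7sk is at 0.08 on TPM and at -0.63 on CPM, and Hexim1 is above 0.7 on all 3.

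The other genes of the pathway were taken as 5 lists with 86 genes in all, of which 79, or 91.9%, reached 1 TPM in both libraries, against 44.0% of all protein-coding genes. The same 44.0% is the background of each list's count. The highest and lowest genes of a list are those by mean TPM of the 2 libraries. The list for 7SK binding and P-TEFb release was detected for 20 of 22 genes, with a median of 28.0 ± 8.57 TPM (SD, n = 2). It also held related genes such as Larp1, Larp4 and Bcdin3d, so not every gene in it has that role. The highest by mean were the RNA-binding proteins Hnrnpa1 and Hnrnpa2b1, which take up 7SK when P-TEFb leaves it. In replicate 1 Ssb, the La protein, was above Hnrnpa2b1, at 87.87 against 83.95 TPM. Hexim2 and Bcdin3d, a relative of Mepce at 0.99 and 1.21 TPM, were below 1 TPM in at least 1 library.

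The list of super elongation complex genes and related genes was detected for 9 of 12 genes, with a median of 3.16 ± 0.891 TPM (SD, n = 2). It included Mllt10, Dot1l and Kmt2a, so these values are not those of the complex alone. The highest genes of the list were Aff3, another scaffold of the AFF family, at 25.8 and 27.1 TPM, and Mllt10 at 10.6 and 19.6 TPM. Aff3 was thus above Aff1 in both libraries. Aff2 was at 0.15 and 0.04 TPM, and Ell3 and Eaf2 had no count in either library.

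Pausing and elongation factors were detected for 18 of 18 genes, with a median of 9.80 ± 1.31 TPM (SD, n = 2). Ssrp1 and Supt16, the subunits of the histone chaperone FACT, were highest, at 71.3 and 79.8 TPM and at 30.7 and 53.2 TPM. Cdc73 of the PAF complex (2.92 and 3.26 TPM) and Nelfa of the pausing factor NELF (3.68 and 4.39 TPM) were lowest by mean, and Polr2a was below both in replicate 2. Other transcription kinases and cyclins were detected for 11 of 12 genes, with a median of 11.1 ± 2.60 TPM (SD, n = 2). Ccnl1 (115.91 and 90.5 TPM) and Ccnl2 (21.5 and 24.5 TPM) were highest, and Ccnk (1.23 and 0.95 TPM) and Cdk7 (1.84 and 2.04 TPM) were lowest. Ccnk, the cyclin partner of Cdk12 and Cdk13, was thus far below both of its kinases.

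The factors by which RNA polymerase III makes 7SK were detected for 21 of 22 genes, with a median of 5.10 ± 0.866 TPM (SD, n = 2). Polr3gl (13.6 and 17.9 TPM), a polymerase subunit, and Snapc5 (9.84 and 18.1 TPM), of the complex that binds the promoters of small nuclear RNA genes, were highest by mean. In replicate 1 Tbp, the TATA-binding protein, was above Snapc5, at 12.4 TPM. Snapc2 of the same complex was at 2.24 and 2.40 TPM. Brf2, the initiation factor used at promoters of this type, was at 1.38 and 0.66 TPM and was the gene of the list not at 1 TPM in both libraries.

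**Figure D5:**
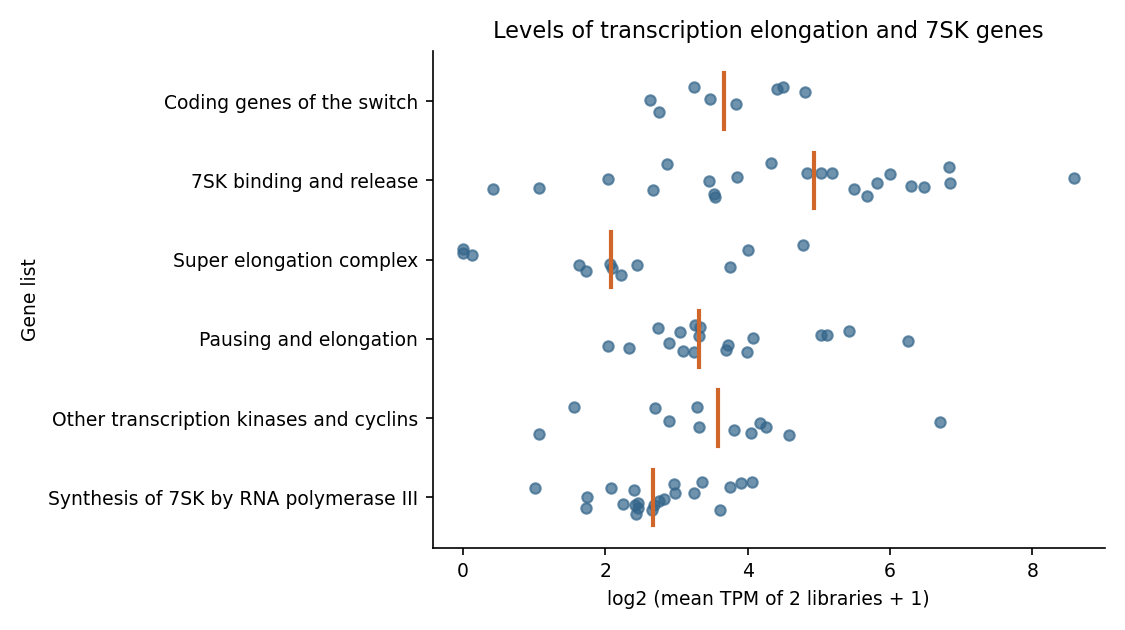
Level of each gene of the 5 pathway lists and of the 8 coding genes of the switch as log2 (mean TPM of the 2 libraries + 1), with 1 point per gene, spread vertically for visibility only, and a vertical line at the median of each list. The median is lowest for the super elongation complex list (3.16 TPM, mean of the 2 libraries' medians) and highest for the 7SK binding and release list (28.0 TPM).

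Of the 86 genes, 82 had a mean of 1 TPM or more, and 3 of these were over 2-fold apart between the replicates with separate intervals, or 3.66% against 12.4% of all genes. Hnrnpa1 was at 218 and 550 TPM. Polr2a, the largest subunit of RNA polymerase II, was at 9.06 and 2.31 TPM, and its log2 change on CPM was -1.48. Brf2 was the other one.

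The genes with levels most like that of Rn7sk over the 2 libraries were Gm22422, Gm22513 and Gm23971, at Euclidean distances of 1.99 to 2.57 in log2 (TPM + 1). No gene was close to Rn7sk by this measure. For Cdk9 the nearest protein-coding genes were Ddx10, Gltp and Cntln, at distances of 0.0076 to 0.025. This likeness rests on 2 values a gene.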

How the data were processed

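Total RNA of mouse HSC was sequenced in 2 libraries. Per the file headers, the deposited gene and transcript tables give expected counts, TPM, posterior mean TPM, a posterior SD, effective lengths, and interval bounds on the TPM scale, treated as a score. The deposited transcript tables add isoform percent, each transcript's part of its gene. The authors used mm10 and GENCODE M4, according to text files deposited for each sample. Which aligner and counter made them is not given in the sources.

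Names, classes, positions and sequences came from GENCODE M21 (GRCm38), matched by identifier without version for 42462 genes. The genes and lists were chosen with earlier results of these data known. A gene was detected at 1 TPM. Log2 ratios used a pseudocount of 0.1. A pair was ordered when both libraries had the same direction and separate deposited intervals. Apart between replicates meant over 2-fold with separate intervals, for genes averaging 1 TPM or more. Copies of 7SK were found with blastn 2.17.0. TMM factors came from edgeR 4.0.16 on rounded counts. Python 3.11.15 with pandas 2.3.3 was used. Named genes were all 9 genes, the 2 highest and 2 lowest of each list, genes apart between replicates, 4 copies, 3 nearest genes of Rn7sk and of Cdk9, and transcripts at 10% or more. Total counts were 27901074 and 48490188, and 3 counts correspond to 0.108 and 0.0619 CPM.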

Additional observations from a re-analysis of the deposited data

How the results depend on the processing

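Beside 28 values that leave out 1 library, which with 2 libraries must lie within the SD and say nothing of stability for the ratios and the Rn7sk share, 163 alternative values were computed. Of these, 111 stayed within the replicate spread (for counts, within 1.5 times; for changes between replicates, within 1 SD of those of coding genes), 13 changed sign and 39 moved without a change of sign. No paired analysis was possible because there is 1 group. On CPM the log2 ratios changed sign for Hexim1 to Cdk9 (0.56), Cdk9 to Ccnt2 (-1.30), Cdk9 to Cdk13 (-1.75) and Cdk9 to Cdk12 (-1.68), the last from a value near 0 that was not ordered. They moved to 6.21 for Hexim1 to Hexim2, 0.73 for Larp7 to Hexim1, -1.42 for Mepce to Hexim1, 0.74 for Ccnt1 to Ccnt2, -2.04 for Cdk9 to Ccnt1 and 2.37 for Aff4 to Cdk9. On transcripts of at least 1000 nucleotides, chosen after seeing the data, Aff4 to Cdk9 was -0.12, Larp7 to Mepce 3.04, Mepce to Hexim1 -1.34, Ccnt1 to Ccnt2 0.77, Cdk9 to Ccnt1 -0.74 and Cdk9 to Ccnt2 0.028. On protein-coding transcripts, also chosen after seeing the data, Hexim1 to Cdk9 was -0.25, Cdk9 to Ccnt1 -0.063, Cdk9 to Ccnt2 1.06 and Aff4 to Cdk9 0.27. With a pseudocount of 1, Hexim1 to Hexim2 was 2.76, Cdk9 to Ccnt2 0.36 and Cdk9 to Cdk13 0.54. With posterior mean TPM, Hexim1 to Hexim2 was 3.91 and Cdk9 to Cdk12 0.038. The change of Rn7sk between replicates was -0.63 on CPM, TMM and median-of-ratios scales, -0.22 centred and -0.26 over full length. That of Mepce was -0.039 on CPM, -0.043 on TMM and -0.039 on median-of-ratios scales. The share of Rn7sk was 5.11% of counts and 18.3% over full length. Genes apart between the replicates numbered 0 of 9 on CPM, TMM, median-of-ratios and centred scales, and 4 at 1.5-fold. Rescaled over protein-coding genes, the list medians were 151.5 TPM for 7SK binding and release, 17.08 for the super elongation complex, 53.66 for pausing and elongation, 60.33 for kinases and cyclins and 27.87 for 7SK synthesis. By counts, the protein-coding share was 80.2% for Ccnt1, 93.4% for Aff4 and 50.1% for Ccnt2. The share of copies was 0.0272% at 80% identity, 0.0259% at 90% and 0.0361% by TPM. Where scale or length is the choice changed, the alternative's own construction gives the move, and for the rest the cause was not tested.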
